A study of Mus musculus with 18 samples.

Results

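The contacts described here are those of the HoxD region in mouse embryonic stem cells (ESCs) that lack the Polycomb protein Ring1B and in the same kind of cells after Ring1B had been put back. They were chosen by library label, and comprise 2 Ring1BGWT libraries (Ring1B knockout ESCs expressing wild-type Ring1B), 3 Ring1B-/- libraries and 1 Ring1BG53 library (knockout ESCs expressing Ring1B with the I53A substitution), 6 of the 18 libraries of the series. The 2 Ring1B_WT libraries, from the wild-type WTF18 ESC line, were used for comparison. The spread behind the tests came from 14 libraries, which also included the groups OS25_UD, OS25_D3 and EED-/-. These are undifferentiated OS25 ESCs, OS25 cells differentiated with retinoic acid, and ESCs that lack Eed. The labels give the genotype Ring1B KO to Ring1BGWT, Ring1B-/- and Ring1BG53 libraries alike and tell them apart only by title, and the forms of Ring1B that were put back are known from the study's text. The number of rescue lines, and whether each was 1 clone, are details not given in the sources used here. By the labels all these cells were cultured on mitomycin C-treated embryonic fibroblasts, and the study's methods describe that such feeder cells were removed by re-plating before 5C. A contact map measures no expression and the Ring1B gene lies outside the mapped region, so neither the genotype, the level of the transgenes nor the cell type could be checked in these files.

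Ring1B is the catalytic subunit of Polycomb repressive complex 1 (PRC1), which ubiquitinates histone H2A and binds many developmental genes that are silent in ESCs. The Hoxd genes and the neighbouring homeobox gene Evx2 are among its best-known targets, and PRC1-bound Hox clusters are known for a compact chromatin fold. I53A lies in the RING domain and is known to disturb the interaction with the ubiquitin-conjugating enzyme, so this mutant is used to separate the ligase activity of Ring1B from its other functions. The comparison of Ring1BGWT with Ring1B-/- asks which contacts of the cluster are seen again when the protein is supplied.

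Contacts were measured by 5C (chromosome conformation capture carbon copy), in which fixed chromatin is cut with the enzyme EcoRI and ligated, and junctions are read with primers that lie at the fragment ends. The design held 66 fragments with primers of one direction and 67 with primers of the other, on chromosome 2 (mm9) from 74241352 to 74907778, a span of 666 kb. A junction is read only between a forward and a reverse primer, which leaves 4422 fragment pairs, 4251 of them at least 10 kb apart and used here. An interaction frequency is the number of reads of a pair per 1000 reads of its sequence run. Fragments were assigned by midpoint to HoxD-Evx2 (22 fragments, 74498312 to 74604594, 106 kb), the 5′ flank on its Evx2 side (41 fragments, 257 kb) and the 3′ flank on its Hoxd1 side (70 fragments, 303 kb). The fragment that carries Evx2, mHoxD_67, has its midpoint in the 5′ flank and is therefore described on its own. No fragment of the design covers Hoxd10.

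A 5C primer pair reads a junction at a fragment's EcoRI end. The reference sequence at the right-hand end of the fragments on which the results turn is given below, on the + strand of mm9, with the EcoRI site in capitals. The primers' own sequences and the strand they read were not used here. The first 9 lines are fragments of the named contacts that were higher in Ring1BGWT than in Ring1B-/- libraries, and the last is the anchor whose mean over all partners was past the threshold, as lower in Ring1BGWT.
mHoxD_13 (intergenic, 5′ flank, chr2:74285330-74285359): gagaacaccttatatgcactcatgGAATTC
mHoxD_67 (Evx2, chr2:74498285-74498314): aatgagtattttatttaacaaataGAATTC
mHoxD_70 (Hoxd13, chr2:74511662-74511691): gaggatgctccagtagaaaggagaGAATTC
mHoxD_75 (Hoxd11, chr2:74524291-74524320): ctcagaaagtgattattttgtttaGAATTC
mHoxD_80 (Hoxd8, chr2:74544612-74544641): ttccaaaccctagagttggaaaagGAATTC
mHoxD_82 (Hoxd3, chr2:74552543-74552572): tctactaatacgtatattttgccaGAATTC
mHoxD_88 (Hoxd3 and Hoxd4, chr2:74572966-74572995): tggggcaggtgaacaaaaaggaagGAATTC
mHoxD_89 (Hoxd3, chr2:74574580-74574609): ctcagcctggttccgttctaccggGAATTC
mHoxD_94 (Hoxd1, chr2:74604568-74604597): tgataggaatgtgaaattgcacctGAATTC
mHoxD_142 (intergenic, 3′ flank, chr2:74759915-74759944): ctctcttgttccctgtttttcgtaGAATTC

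Depth differed between the libraries compared. The Ring1BGWT libraries held 216419 and 607997 reads, the Ring1B-/- libraries 1708047, 769601 and 1103714, the Ring1BG53 library 309935 and the Ring1B_WT libraries 653441 and 692267. A pair with 3 reads has a frequency of 0.0139 in the shallowest library and of 0.00176 in the deepest, and 24.2% to 63.5% of the pairs had a count of 0. Such limits reflect counting error alone, since 5C reads are PCR copies. One knockout library, called Ring1B-/- replicate 3 here because its title carries no number, lay between the other knockout libraries and the wild type in the mean frequency and the enrichment of HoxD-Evx2, and results that turn on it are also given without it. The library was singled out by these values, and its depth lay between those of the other knockout libraries. Differences and p-values without it were therefore chosen on the outcome and are descriptions only.

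Within HoxD-Evx2, contacts were more frequent in both Ring1BGWT libraries than in all 3 Ring1B-/- libraries. The mean frequency over the 95 pairs inside HoxD-Evx2 was 1.21 and 1.31 in the Ring1BGWT libraries, against 0.555, 0.511 and 0.939 in the Ring1B-/- libraries. The groups did not overlap, and the means were 1.26 ± 0.0746 (SD, n = 2) and 0.668 ± 0.236 (SD, n = 3), a ratio of 1.89. Ring1B_WT libraries stood at 1.09 and 1.30. As a share of all reads, pairs inside HoxD-Evx2 took 11.5% and 12.5% in Ring1BGWT, 5.27%, 4.85% and 8.92% in Ring1B-/-, and 10.3% and 12.3% in Ring1B_WT libraries.

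The difference between Ring1BGWT and Ring1B-/- on the log2(frequency + 0.02) scale was 0.95 ± 0.27 (SE), with a 95% confidence interval of 0.35 to 1.54. With limma and a Benjamini-Hochberg adjustment over 81 region and distance contrasts its adjusted p was 0.0713, which is not past the threshold of 0.05. Without Ring1B-/- replicate 3, a choice made on the outcome, the difference was 1.21 with an adjusted p of 0.00195. Over 19 alternatives the difference ran from 0.56 to 1.21 and passed under 2 of them, this one included. An exact permutation test of 2 against 3 libraries, two-sided, gave p = 0.2, the smallest this design allows.

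The enrichment of HoxD-Evx2 over its flanks gave the same picture without dependence on the scaling of a library. It is the log2 ratio of frequencies inside HoxD-Evx2 to those inside the flanks, averaged over classes of matched distance. It was 2.99 and 2.88 in Ring1BGWT, 1.18, 1.53 and 2.41 in Ring1B-/-, and 2.86 and 2.95 in Ring1B_WT libraries. The difference between Ring1BGWT and Ring1B-/- was 1.23 ± 0.37 (SE) with a limma adjusted p of 0.0713, and 1.58 with an adjusted p of 0.00195 without Ring1B-/- replicate 3.

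None of the 27 region and distance values passed the threshold between Ring1BGWT and Ring1B-/- with limma, while 13 had an unadjusted p under 0.05. With the spread modelled as a function of the mean 2 passed, and without Ring1B-/- replicate 3, 12 passed.

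**Figure D1:**
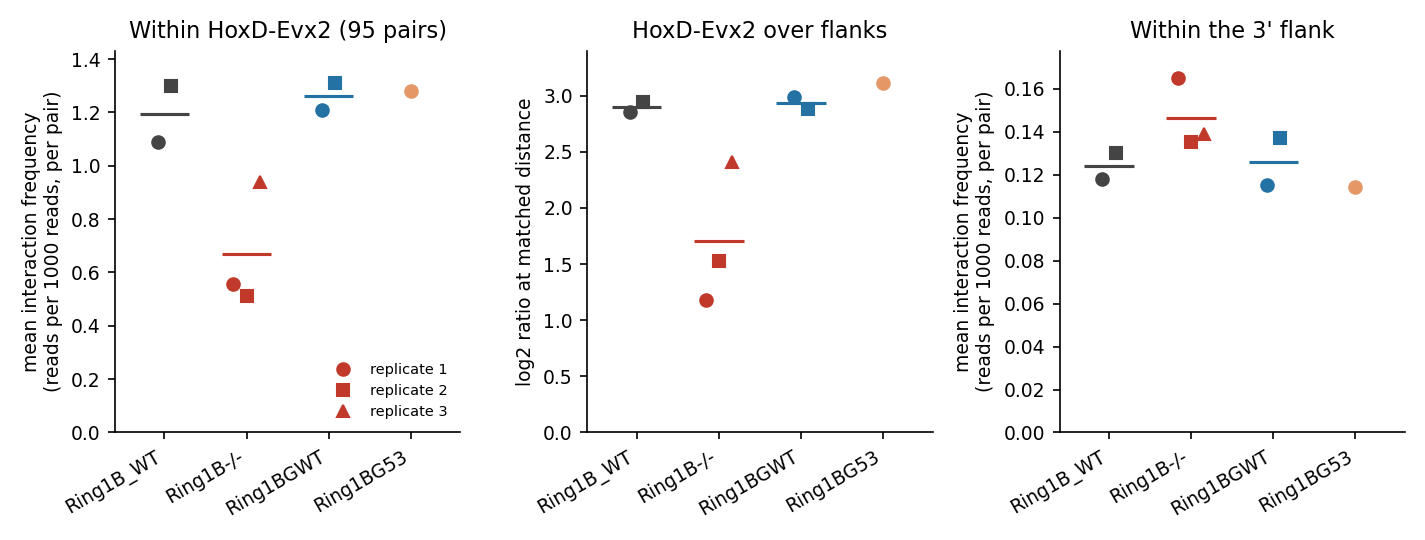
Mean interaction frequency within HoxD-Evx2 (left, reads per 1000 reads), its log2 enrichment over the flanks at matched distance (middle) and mean interaction frequency within the 3′ flank (right), per library, with symbols for replicates and a line at each group mean. In the left and middle panels both Ring1BGWT libraries lie above all 3 Ring1B-/- libraries, and the Ring1B-/- replicate 3 stands at 0.939 and 2.41, above the other knockout libraries. In the right panel the groups overlap.

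Of the 4 sets of contacts averaged within the cluster and with the Evx2 fragment, those that join its 5′ and 3′ parts gave the largest log2 difference with all libraries included. The set named Evx2-Hoxd9 runs from mHoxD_68, next to the Evx2 fragment, to the Hoxd9 fragment, and leaves out the Evx2 fragment itself. It holds the 5′ end, with the genes used in the distal limb. Between this set and the Hoxd8-Hoxd1 fragments at the 3′ end (54 pairs), the mean frequency was 1.12 and 1.26 in Ring1BGWT libraries. In Ring1B-/- libraries it was 0.428, 0.411 and 0.774. Ring1B_WT libraries held 0.99 and 1.10. This log2 difference of 1.17 ± 0.30 (SE) had a limma adjusted p of 0.0692.

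Within Hoxd8-Hoxd1 (33 pairs) the frequency was 1.21 and 1.22 in Ring1BGWT and 0.678, 0.624 and 1.00 in Ring1B-/- libraries, a log2 difference of 0.68 (adjusted p = 0.0757). Within Evx2-Hoxd9 (8 pairs) it was 1.78 and 2.09 against 0.899, 0.714 and 1.80, so that the groups overlapped at the Ring1B-/- replicate 3, and the log2 difference of 0.86 (adjusted p = 0.174) became -0.02 when the highest 1% of pairs was left out. The set from the Evx2 fragment to Hoxd13-Hoxd9 held 3 pairs, with fragments of Hoxd13, Hoxd12 and Hoxd11 and not with that of Hoxd9. Its frequency was 5.97 and 6.21 against 2.37, 1.98 and 4.86, a log2 difference of 1.10 (adjusted p = 0.174). None of these differences was past the threshold, while all 4 were without Ring1B-/- replicate 3, with log2 differences of 0.88 to 1.48 and adjusted p of 0.00152 to 0.0195. The order then changed, with 1.48 from the Evx2 fragment to Hoxd13-Hoxd9 and 1.46 between the 5′ and 3′ parts.

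The ratio between Ring1BGWT and Ring1B-/- was higher in the classes of longer distance inside the cluster, although the difference between classes was not tested. At 10 to 20 kb (16 pairs) the frequency was 1.56 and 1.80 in Ring1BGWT and 0.811, 0.731 and 1.56 in Ring1B-/- libraries, a ratio of means of 1.62. At 40 to 60 kb (27 pairs) it was 1.08 and 1.12 against 0.466, 0.397 and 0.721, a ratio of 2.09. At 60 to 80 kb (10 pairs) it was 1.21 and 1.39 against 0.341, 0.402 and 1.05, and at 80 to 110 kb (8 pairs) 1.09 and 1.44 against 0.324, 0.517 and 0.919, with ratios of 2.18 and 2.16. Both Ring1BGWT libraries lay above all knockout libraries at 20 kb and beyond, and at 10 to 20 kb the lower of them equalled the Ring1B-/- replicate 3 to the digits given.

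On the log2 scale the 5 classes, from the shortest to the longest, gave differences of 0.77, 0.87, 1.08, 1.27 and 1.19, with limma adjusted p between 0.0692 and 0.15. Without Ring1B-/- replicate 3 they were 1.10, 1.02, 1.32, 1.75 and 1.57 and all 5 passed, with adjusted p of 0.00152 to 0.0123. The same classes inside the flanks gave -0.19, -0.27, -0.21, -0.06 and -0.02. At 20 to 40 kb inside the flanks (182 pairs) both Ring1BGWT libraries, at 0.189 and 0.19, lay below all 3 Ring1B-/- libraries, at 0.254, 0.218 and 0.226, and above both Ring1B_WT libraries, at 0.174 and 0.18, and in the other flank classes Ring1BGWT and Ring1B-/- overlapped. In Ring1B-/- replicates 1 and 2 the frequency inside the cluster was 0.811 and 0.731 in the shortest class and 0.324 and 0.517 in the longest. In Ring1B-/- replicate 3 it was 1.56 in the shortest class, 1.05 at 60 to 80 kb and 0.919 in the longest. In Ring1BGWT libraries it stayed above 1 in all 5 classes.

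**Figure D2:**
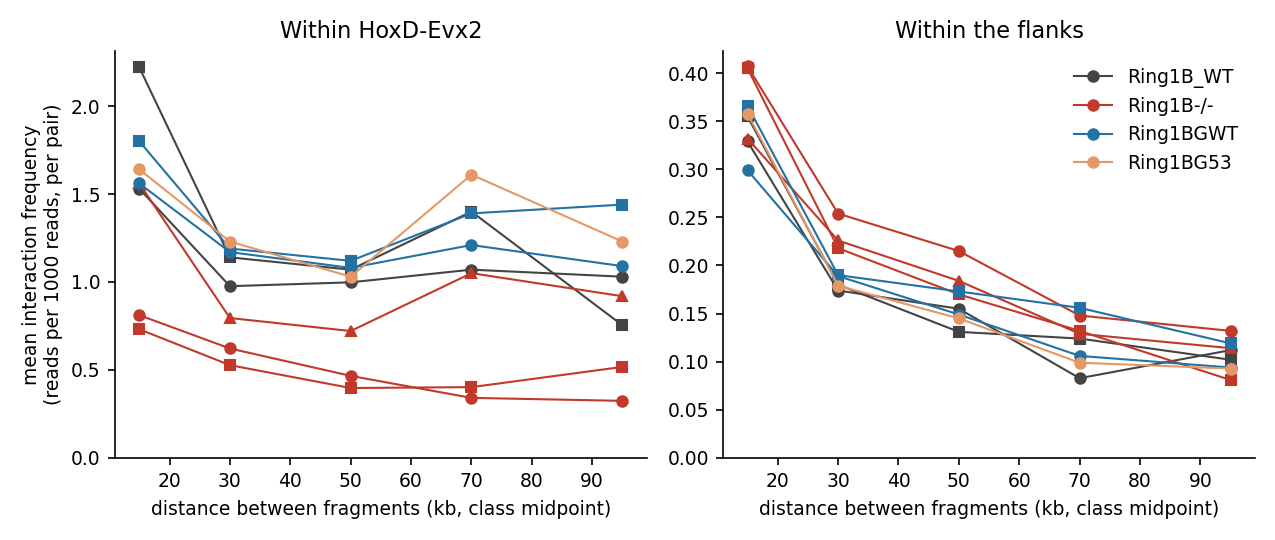
Mean interaction frequency (reads per 1000 reads, per pair) against the distance between fragments (kb, midpoint of each class), within HoxD-Evx2 (left) and within the flanks (right, with its own scale), 1 line per library and symbols for replicates as in the plot by region. Within HoxD-Evx2 the Ring1BGWT lines stay between 1.08 and 1.80 while those of Ring1B-/- replicates 1 and 2 lie between 0.324 and 0.811. The line of Ring1B-/- replicate 3 lies between them, at 0.721 to 1.56, and meets the lower Ring1BGWT library at 10 to 20 kb. Within the flanks Ring1BGWT and Ring1B-/- overlap except at 20 to 40 kb, where both Ring1BGWT libraries (0.189 and 0.19) lie below all 3 Ring1B-/- libraries (0.254, 0.218 and 0.226).

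Of the 95 pairs inside HoxD-Evx2, 32 (33.7%) had both Ring1BGWT libraries above all 3 Ring1B-/- libraries and 7 (7.37%) had both below. Over all 4251 pairs the shares were 6.85% above and 8.14% below, and outside HoxD-Evx2 they were 6.23% and 8.16%. The Evx2 fragment belonged with the cluster in this respect, with 5 of its 10 pairs to HoxD-Evx2 fragments above and 0 below. The pairs above were found in every distance class inside the cluster, 7 of 16 at 10 to 20 kb, 10 of 34 at 20 to 40 kb, 8 of 27 at 40 to 60 kb, 3 of 10 at 60 to 80 kb and 4 of 8 at 80 to 110 kb. Inside the flanks the shares above in these classes were 5.49% to 9.56%. Of the 7 cluster pairs below, 6 lay at 20 to 40 kb. They were 17.6% of that class, against 15.9% inside the flanks. Ring1B_WT libraries, which are compared with the same knockout libraries, both lay above all 3 of them in 28 of the 95 pairs (29.5%) against 5.36% of all pairs.

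By anchor, the fragments of Evx2, Hoxd13 and Hoxd11 and 1 of the 2 fragments of Hoxd8 gave the larger differences, while those of Hoxd12 and Hoxd9 lay between -0.34 and 0.01 on the log2 scale. The value of an anchor is its mean frequency over all partners at least 10 kb away. Both Ring1BGWT libraries were above all 3 Ring1B-/- libraries at 8 of the 22 HoxD-Evx2 anchors and below at 1, and at 17 (12.8%) and 20 (15%) of all anchors of the design. The median log2 difference was 0.45 over the 22 HoxD-Evx2 anchors, -0.02 over the 41 anchors of the 5′ flank, -0.14 over the 70 of the 3′ flank and -0.09 over all of them. No HoxD-Evx2 anchor was past the threshold over all partners. With limma 1 anchor of the whole design was (0.752%, described further on), and 15 had an unadjusted p under 0.05. Without Ring1B-/- replicate 3, 10 anchors passed, of which 8 were higher in Ring1BGWT (the fragments of Evx2, Hoxd13, Hoxd11 and Hoxd8 described next, mHoxD_68, mHoxD_69, mHoxD_88 and mHoxD_92) and 2 lower.

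Hoxd13, the most 5′ Hoxd gene, which patterns the digits, stood at 0.649 and 0.714 in Ring1BGWT and 0.294, 0.248 and 0.467 in Ring1B-/- libraries (mHoxD_70, 74505530 to 74511688). Its log2 difference was 1.02 ± 0.29 (SE), with a limma adjusted p of 0.0849. Both Ring1BGWT libraries were above all Ring1B-/- libraries in 18 of its 63 pairs (28.6%), against 6.85% of all pairs. Ring1B_WT libraries held 0.510 and 0.377, below both Ring1BGWT libraries, with a limma adjusted p of 0.97 for that difference.

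The Evx2 fragment stood at 0.719 and 0.827 in Ring1BGWT and 0.363, 0.261 and 0.598 in Ring1B-/- libraries (log2 difference 0.97, adjusted p = 0.121). Evx2 encodes a homeobox protein and lies next to Hoxd13 on the opposite strand. Hoxd11 (mHoxD_75) stood at 0.917 and 1.03 in Ring1BGWT and 0.383, 0.308 and 0.908 in Ring1B-/- libraries (log2 difference 0.99, adjusted p = 0.169). The Ring1B-/- replicate 3 lay just below the Ring1BGWT libraries there.

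Hoxd8, in the middle of the cluster (mHoxD_80), stood at 0.280 and 0.274 in Ring1BGWT and 0.131, 0.0982 and 0.223 in Ring1B-/- libraries (log2 difference 0.87, adjusted p = 0.169). The second Hoxd8 fragment, mHoxD_81, stood at 0.245 and 0.266 against 0.215, 0.135 and 0.222, a smaller log2 difference of 0.41 (adjusted p = 0.622). The fragment mHoxD_88, which overlaps Hoxd3 and Hoxd4, stood at 0.394 and 0.455 in Ring1BGWT and 0.252, 0.164 and 0.361 in Ring1B-/- libraries (log2 difference 0.73, adjusted p = 0.271). The Hoxd3 fragment mHoxD_82 differed by 0.38, which turned to -0.30 as a mean of log2 values and to -0.14 without the highest 1% of pairs. The 9 fragments that overlap Hoxd3 ranged from -0.41 to 0.73, and 3 of them were above all Ring1B-/- libraries.

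Hoxd1, the most 3′ gene, stood at 0.297 and 0.391 in Ring1BGWT and 0.177, 0.269 and 0.307 in Ring1B-/- libraries (log2 difference 0.44, adjusted p = 0.577), and the groups overlapped. The 3 fragments of Hoxd12 ranged from -0.20 to 0.01 with 0 above and 0 below. The genes beyond the cluster gave no common direction. Lnp, in the 5′ flank, had 8 fragments with log2 differences of -0.37 to 0.37, none of them above or below all Ring1B-/- libraries, and Mtx2, in the 3′ flank, had 11 fragments at -0.56 to 0.47, 1 above and 2 below. Lnp encodes an endoplasmic reticulum protein and Mtx2 a mitochondrial import protein.

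As a median, the HoxD-Evx2 anchors differed more in their contacts within 110 kb than beyond, with exceptions such as mHoxD_85 (Hoxd3 and Hoxd4), at 0.36 near and 0.75 far on the log2 scale, and Hoxd9, described next. Over partners 10 to 110 kb away the median log2 difference of the 22 anchors was 0.72 and 20 of 22 were positive, and over partners more than 110 kb away it was 0.09 with 12 of 22 positive. Hoxd13 had the largest near difference of these anchors, 1.40 with a limma adjusted p of 0.0598. Its near frequency was 1.87 and 1.78 in Ring1BGWT and 0.561, 0.572 and 0.983 in Ring1B-/- libraries. No anchor (0%) was past the threshold over near partners, where 20 had an unadjusted p under 0.05, and 12 passed without Ring1B-/- replicate 3, 8 of them higher and 4 lower in Ring1BGWT. With a pseudocount of 0.1 the near values of Hoxd13 (adjusted p = 0.0173), Evx2 and Hoxd8 (mHoxD_80; 0.0419 each) passed as higher and that of the intergenic 5′ flank fragment mHoxD_7 as lower, and scaled to pairs at least 10 kb apart mHoxD_7 and mHoxD_173, of the 3′ flank, passed as lower. The near frequency of mHoxD_7 was 0.0188 and 0.12 in Ring1BGWT and 0.266, 0.235 and 0.146 in Ring1B-/- libraries, a log2 difference of -1.64 with a limma adjusted p of 0.0598.

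**Figure D3:**
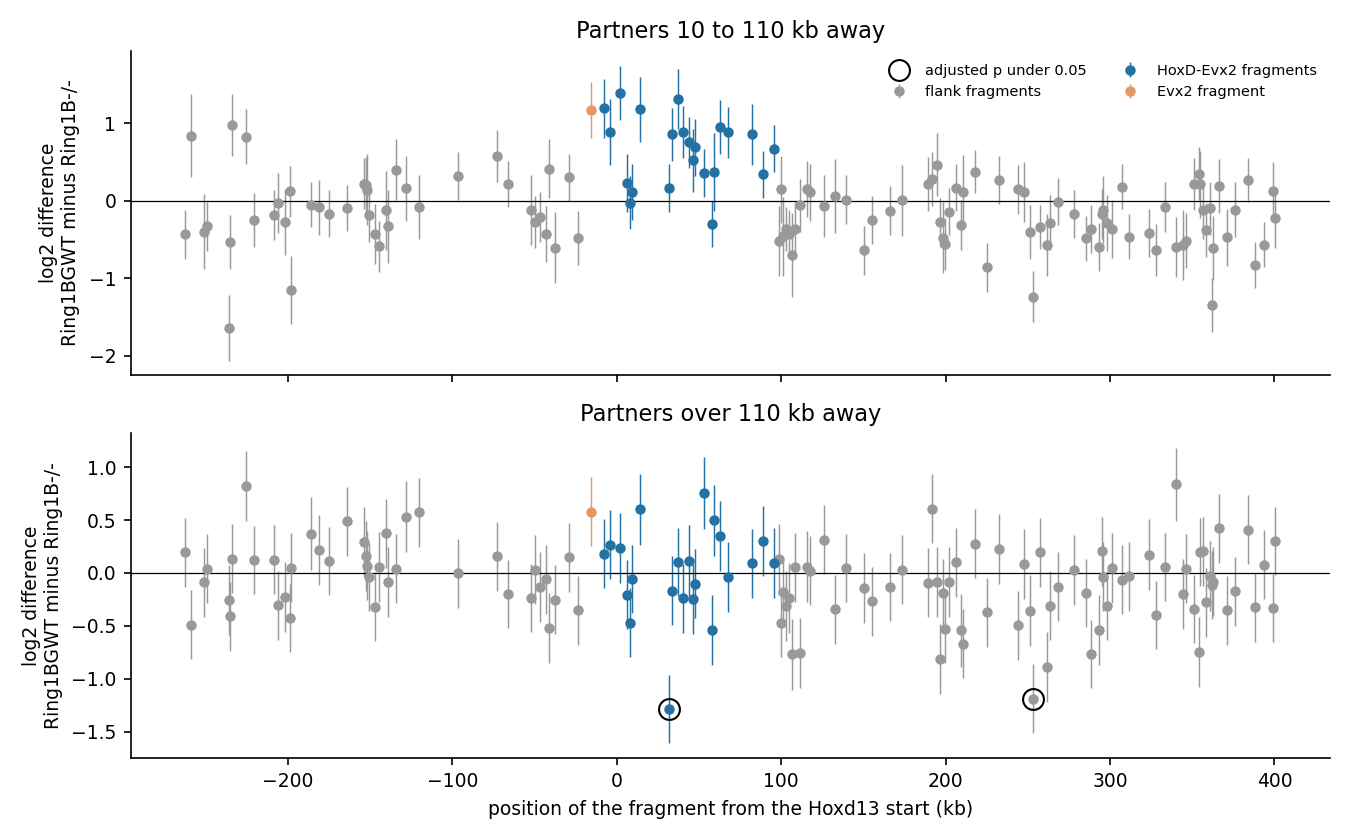
Log2 difference between Ring1BGWT and Ring1B-/- in the mean frequency of each anchor (points; bars are ± 1 SE) against its position from the Hoxd13 start (kb), over partners 10 to 110 kb away (top) and over 110 kb away (bottom). HoxD-Evx2 fragments and the Evx2 fragment lie mostly above 0 in the top panel, with Hoxd13 at 1.40, and scatter around 0 in the bottom panel. Circles mark anchors with an adjusted p under 0.05, Hoxd9 at -1.29 and mHoxD_142 at -1.19, both over far partners.

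Hoxd9 differed from its neighbours in the cluster. Over 44 partners more than 110 kb away its fragment (mHoxD_78, 74537329 to 74538484) had a frequency of 0.048 and 0.0478 in Ring1BGWT against 0.170, 0.128 and 0.141 in Ring1B-/- libraries. These far contacts fell by 1.29 on the log2 scale (SE 0.322, limma adjusted p = 0.0131), one of 2 anchors (1.5%) past the threshold over far partners. Ring1B_WT libraries, at 0.0683 and 0.0576, lay near the Ring1BGWT values, and the Ring1BG53 library was at 0.051.

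The lower far contacts of Hoxd9 were spread over many partners. Of its 44 far pairs 11 had both Ring1BGWT libraries below all Ring1B-/- libraries and 0 had both above, where 8.14% and 6.85% of all pairs did. Those below were 9 of 28 in the 3′ flank and 2 of 16 in the 5′ flank. The 44 far pairs rested on 457 and 1279 reads in Ring1BGWT and 12777, 4351 and 6838 in Ring1B-/- libraries. Of these pairs 29 and 21 held no read in Ring1BGWT, and 5, 16 and 16 held none in Ring1B-/- libraries. Among the 11 pairs below, 3 held no read in either Ring1BGWT library. The call was lost without the Ring1B-/- replicate 1 (adjusted p = 0.0809), without Ring1BGWT replicate 1 (0.153) and without Ring1BGWT replicate 2 (0.105), while the difference stayed between -1.29 and -1.19. Inside the cluster the pairs of Hoxd9 went both ways. Hoxd9 met Hoxd13, at 29.3 kb, at 2.42 and 2.79 in Ring1BGWT and 1.26, 1.27 and 1.13 in Ring1B-/- libraries. This pair was named after its value had been seen and was not past the threshold (limma adjusted p = 0.834). With mHoxD_87 both Ring1BGWT libraries (0.125 and 0) lay below all Ring1B-/- libraries (0.161, 0.131 and 0.143). Other pairs overlapped, with group means of 0.233 against 0.448 for mHoxD_83 and 3.32 against 2.3 for Hoxd11.

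The second anchor past the threshold was mHoxD_142, an intergenic fragment of 873 bp in the 3′ flank (74759069 to 74759941). Over all partners it stood at 0.0162 and 0.0184 in Ring1BGWT and 0.0740, 0.0744 and 0.0537 in Ring1B-/- libraries, and fell by 1.22 on the log2 scale (SE 0.258, limma adjusted p = 0.00787). Over far partners it fell by 1.19 (adjusted p = 0.0222). Ring1B_WT libraries were at 0.0331 and 0.0448 and the Ring1BG53 library at 0.0326. Its 43 far pairs rested on 112 and 489 reads in Ring1BGWT and 3873, 2525 and 2555 in Ring1B-/- libraries. Of these pairs 36 and 31 held no read in Ring1BGWT, and 15, 24 and 30 held none in Ring1B-/- libraries. The call over all partners was lost without Ring1B-/- replicate 1 (adjusted p = 0.0562), Ring1BGWT replicate 1 (0.218) or Ring1BGWT replicate 2 (0.114), with a pseudocount of 0.1 (0.0759) and as a mean of log2 values (0.289).

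A fragment far outside the cluster also stood higher in Ring1BGWT. The intergenic fragment mHoxD_13, at -225.3 kb from the Hoxd13 start, had 0.107 and 0.0895 in Ring1BGWT against 0.0533, 0.0356 and 0.0534 in Ring1B-/- libraries (log2 difference 0.82, adjusted p = 0.169). Ring1B_WT libraries, at 0.0486 and 0.0318, were as low as the knockout libraries. The groups did not overlap, and 12 of its 64 pairs (18.8%) had both Ring1BGWT libraries above all Ring1B-/- libraries, against 6.85% of all pairs.

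No single fragment pair (0%) passed the threshold of the 3484 tested with limma, while 237 (6.8%) had an unadjusted p under 0.05, 84 higher and 153 lower in Ring1BGWT. The pairs below are therefore described by their values, as those with the largest differences among pairs whose groups did not overlap. The 20 pairs with the largest rise in mean frequency of this kind all lay inside HoxD-Evx2 (16) or ran from the Evx2 fragment into it, and so did 29 of the first 50. A ranking by difference in frequency favours frequent pairs, so this placing says little by itself. Of the 43 most frequent pairs, the highest 1%, 26 lay inside HoxD-Evx2 and 7 ran from the Evx2 fragment into it. Over the 94 tested pairs of HoxD-Evx2 the median log2 difference was 0.73, against -0.35 over all tested pairs, and 72.3% against 41.9% were positive. The value over all pairs is no neutral baseline, since many pairs were empty and unequally so. Empty pairs made up 63.5% and 52.1% in Ring1BGWT and 24.2%, 49.6% and 45.7% in Ring1B-/- libraries. In Ring1B_WT libraries they made up 59.2% and 59.8%, and Ring1B-/- minus Ring1B_WT had a median of 0.47 over all tested pairs. The effect of empty pairs was not tested.

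Evx2 and Hoxd13, 17.9 kb apart, met at a frequency of 11.3 and 9.5 in Ring1BGWT and of 2.75, 3.37 and 5.32 in Ring1B-/- libraries. The Ring1B_WT libraries lay between them at 7.97 and 6.04. Evx2 also met the Hoxd3 fragment mHoxD_89 across 83.1 kb at 4.42 and 3.84 against 0.86, 0.58 and 2.11, with Ring1B_WT libraries at 4.55 and 4.6. The second of these contacts reaches from the 5′ edge of the cluster to its 3′ part.

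Hoxd11 met the Hoxd3 fragment mHoxD_82, 30.1 kb away, at 7.6 and 6.18 in Ring1BGWT and at 2.07, 2.1 and 2.55 in Ring1B-/- libraries, with little spread among the knockout libraries. With the Hoxd3-Hoxd4 fragment mHoxD_88, 49.1 kb away, it met at 5.73 and 5.33 against 0.533, 0.364 and 2.66. With Hoxd8, 23.1 kb away, it met at 3.48 and 3.3 against 0.492, 0.91 and 2.63. In the last 2 pairs the Ring1B-/- replicate 3 lay well above the other knockout libraries. Ring1B_WT libraries were at 3.98 and 3.79, 3.82 and 4.07, and 3.84 and 4.35 in these 3 pairs.

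Hoxd13 met Hoxd8, 34.8 kb away, at 4.56 and 2.9 in Ring1BGWT and at 0.177, 0.277 and 1.24 in Ring1B-/- libraries, a log2 difference of 3.12 (adjusted p = 0.577). It met mHoxD_88, 60.8 kb away, at 2.8 and 3.03 against 0.78, 0.874 and 1.37. It met Hoxd1, at the other end of the cluster and 93.2 kb away, at 2.62 and 2.28 against 0.309, 0.89 and 1.12. In each of these pairs both Ring1BGWT libraries also lay above both Ring1B_WT libraries, which were at 1.7 and 1.83, 1.69 and 1.73, and 1.68 and 0.906.

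Some pairs of the region were lower in Ring1BGWT. Inside the cluster the intergenic fragment mHoxD_79 met mHoxD_88, 29.1 kb away, at 0.245 and 0.0938 in Ring1BGWT and at 1.18, 0.491 and 1.22 in Ring1B-/- libraries. In the 3′ flank, mHoxD_153 and mHoxD_156 met at 0.333 and 0.0362 against 1.21, 1.31 and 0.848. Of the 346 pairs with both Ring1BGWT libraries below all Ring1B-/- libraries, 228 held no read in either Ring1BGWT library, which were among the shallower libraries, so for these only a bound is known.

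**Figure D4:**
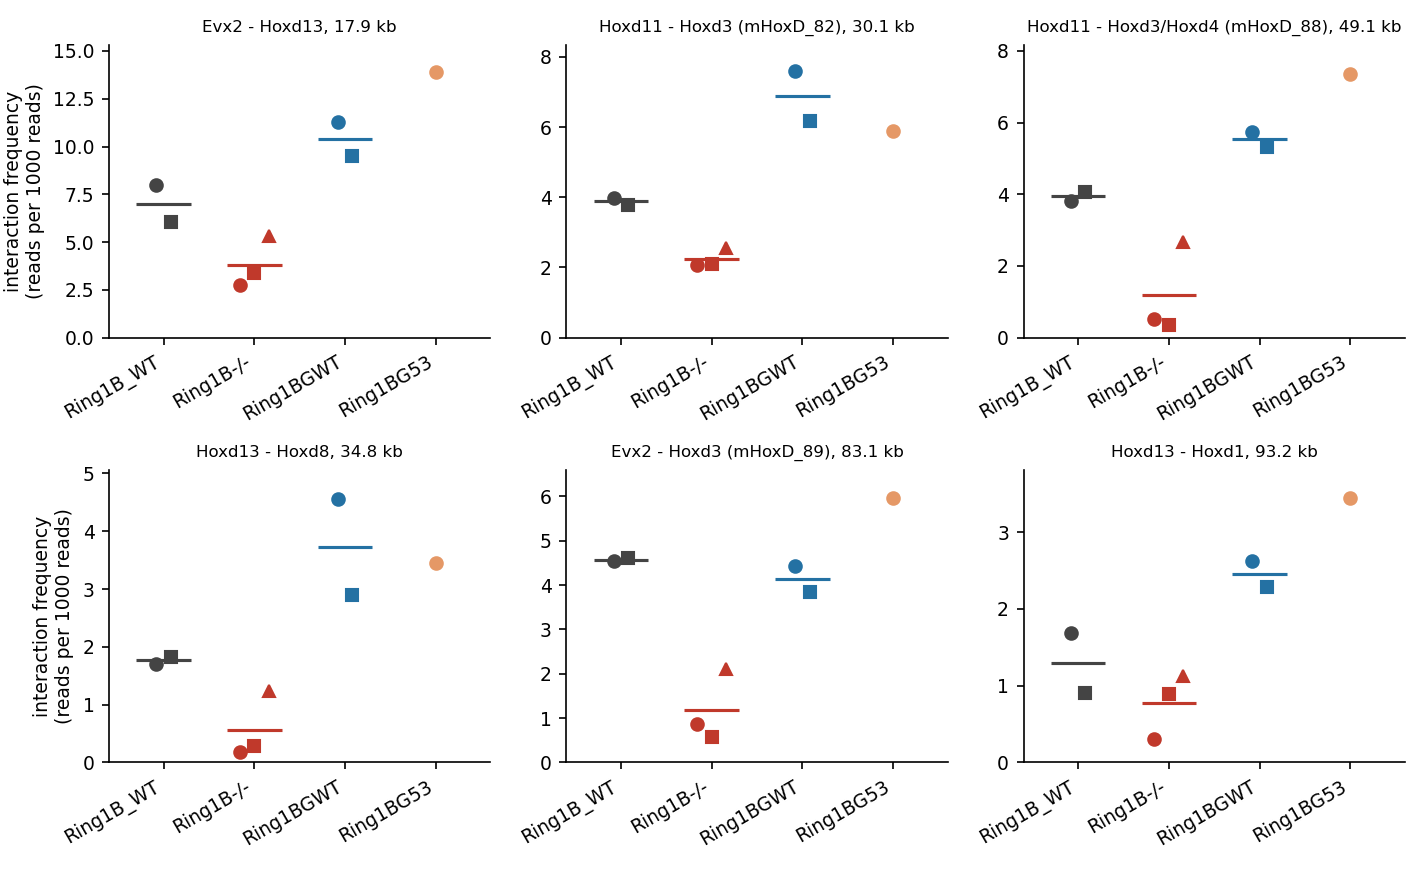
Interaction frequency (reads per 1000 reads, each panel with its own scale from 0) of 6 fragment pairs, per library (symbols mark replicates) with a line at each group mean. In each panel both Ring1BGWT libraries lie above all 3 Ring1B-/- libraries, for example 11.3 and 9.5 against 2.75, 3.37 and 5.32 for Evx2 with Hoxd13. None of the 6 pairs was past the threshold.

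**Figure D5:**
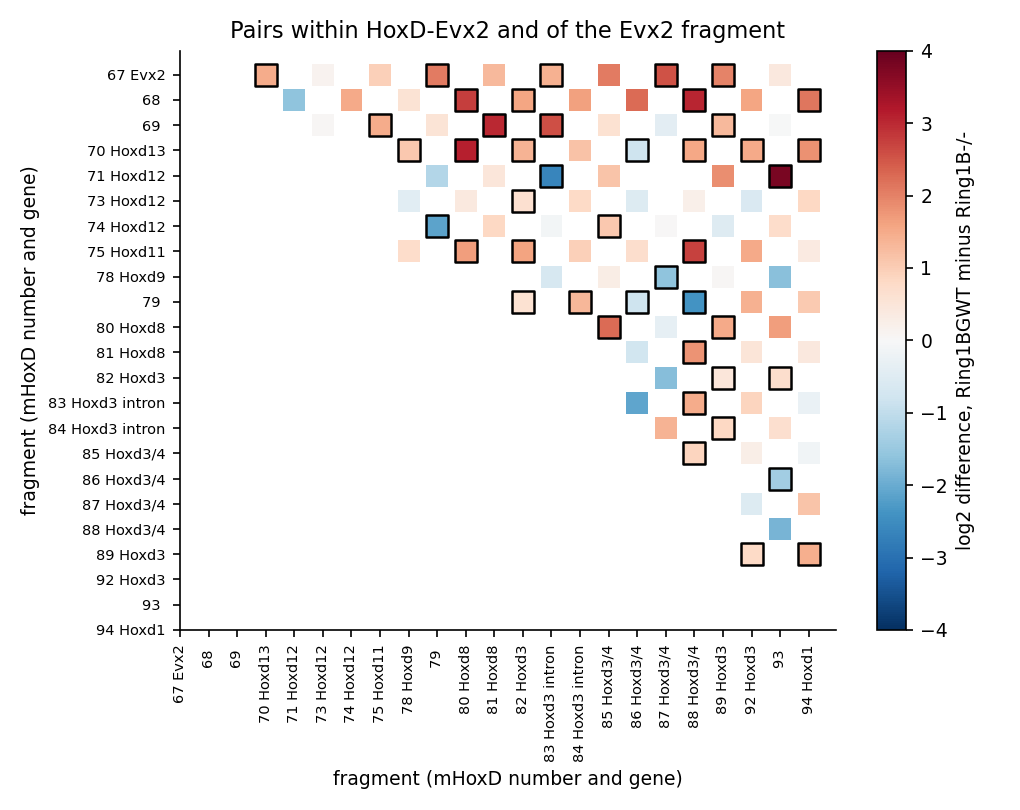
Log2 difference between Ring1BGWT and Ring1B-/- (colour, red higher in Ring1BGWT) for each tested fragment pair inside HoxD-Evx2 and of the Evx2 fragment with it. Both axes give the fragments in genome order, and fragments with no gene named are intergenic. Blank cells have no forward-reverse pair, lie under 10 kb or, for mHoxD_71 with mHoxD_87, were not tested because of the filter on the mean. Black frames mark pairs whose groups did not overlap, 32 higher and 7 lower in HoxD-Evx2 and 5 higher for the Evx2 fragment.

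Means over pairs of 20-kb bins gave 1 call among 557 bin pairs (0.18%), while 55 had an unadjusted p under 0.05, 21 higher and 34 lower in Ring1BGWT. The bin called holds a single fragment pair in the 3′ flank between 74781352 and 74801351, which had no read in either Ring1BGWT library and 0.228, 0.236 and 0.381 in Ring1B-/- libraries (limma adjusted p = 0.049). Ring1B_WT libraries held 0.138 and 0.0766, and the Ring1BG53 library 0.323. The call was lost when any one library of these 2 groups was left out.

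For contacts that leave the cluster or lie outside it no mean was past the threshold with all libraries. From HoxD-Evx2 to the 5′ flank the log2 difference was 0.48 (limma adjusted p = 0.174). Without Ring1B-/- replicate 3 it was 0.70 and passed (adjusted p = 0.0123). This mean takes in the Evx2 fragment, described above as belonging with the cluster. Of the 450 pairs 45 (10%) were above, 5 of them pairs of the Evx2 fragment. Over the 440 pairs without that fragment, 40 (9.09%) were above and 30 (6.82%) below. The median log2 difference of the tested ones was -0.01, and 49.2% were positive. From HoxD-Evx2 to the 3′ flank 55 of 767 pairs (7.17%) were above and 76 (9.91%) below, near the 6.85% and 8.14% of all pairs. The log2 difference there was 0.08 (limma adjusted p = 0.962) and changed sign under other settings. Within the 5′ flank it was -0.04, between the flanks 0, and within the 3′ flank -0.19 (adjusted p = 0.704). The frequency within the 3′ flank was 0.115 and 0.137 in Ring1BGWT and 0.165, 0.135 and 0.139 in Ring1B-/- libraries. Both Ring1BGWT libraries were below in 125 of its 1128 pairs (11.1%) and above in 68 (6.03%), beside 8.14% and 6.85% of all pairs.

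Against the wild type, no contact of the cluster was shown to differ in Ring1BGWT libraries. The log2 difference between Ring1BGWT and Ring1B_WT was 0.08 for the HoxD-Evx2 frequency, with a 95% confidence interval of -0.57 to 0.73 (limma adjusted p = 0.979), and 0.03 for the enrichment, with an interval of -0.87 to 0.93. The corresponding values for Ring1B-/- against Ring1B_WT were -0.87 and -1.20 (adjusted p = 0.0713 for the frequency). The comparisons share libraries, so their values are given side by side only.

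Of the 95 pairs inside HoxD-Evx2, 18 had both Ring1BGWT libraries above both Ring1B_WT libraries and 16 had both below, where 9.81% and 7.76% of all pairs did. None of 3484 fragment pairs (0%) and no anchor (0%) passed the threshold in that comparison with limma, where 268 pairs and 3 anchors had an unadjusted p under 0.05. Among bin pairs 1 of 557 (0.18%) passed, a single pair in the 5′ flank between mHoxD_41 and mHoxD_24 or mHoxD_26 with 0.254 and 0.618 in Ring1BGWT, 0.193, 0.431 and 0.323 in Ring1B-/-, and no read in either Ring1B_WT library.

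The Ring1BG53 library, with the I53A mutant, held values near those of the Ring1BGWT libraries inside the cluster. With 1 library no test is possible. Its HoxD-Evx2 frequency was 1.28 and its enrichment 3.11, above all 3 Ring1B-/- libraries in both. Pairs inside HoxD-Evx2 took 12.2% of its reads, with a Wilson 95% interval of 12.06% to 12.29%. That interval reflects the counting of reads alone and not the spread between libraries, where the Ring1BGWT libraries stood at 11.5% and 12.5%. In 45 of the 95 pairs (47.4%) it lay above all 3 Ring1B-/- libraries, against 15% of all pairs, a condition that 1 library meets more readily than 2.

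Single contacts of the Ring1BG53 library lay on both sides of the Ring1BGWT values. Evx2 met Hoxd13 at 13.9, Hoxd11 met mHoxD_88 at 7.36, Hoxd13 met Hoxd8 at 3.45 and Hoxd13 met Hoxd1 at 3.44, within or above the range of the Ring1BGWT libraries. Hoxd11 met mHoxD_82 at 5.89 and Hoxd9 met Hoxd13 at 1.83, below both Ring1BGWT libraries and above all Ring1B-/- libraries. The pair mHoxD_79 and mHoxD_88, which was lower in Ring1BGWT, stood at 1.24, just above the highest Ring1B-/- library. Over the 95 pairs its log2 frequencies had a Pearson r of 0.723 and 0.848 (Spearman 0.827 and 0.901) with those of the Ring1BGWT libraries, 0.722 and 0.736 (0.785 and 0.834) with Ring1B_WT and 0.485 to 0.767 (0.539 to 0.843) with Ring1B-/- libraries, so that these ranges overlap. The Ring1BGWT libraries had 0.686 (0.834) with each other, 0.576 to 0.696 (0.726 to 0.799) with Ring1B_WT and 0.431 to 0.71 (0.517 to 0.801) with Ring1B-/- libraries. Over 848 pairs inside the flanks, the Ring1BG53 library had a Pearson r of 0.617 with Ring1BGWT replicate 1 and 0.385 with replicate 2. The Ring1BGWT libraries had 0.371 with each other there. The likeness of the Ring1BG53 library to Ring1BGWT replicate 1 was therefore not particular to the cluster, and its cause was not tested. Pairs share fragments and libraries differ in depth, so these are descriptions across pairs.

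The anchors with the larger differences were longer fragments with more contacts in the wild type. Over the 22 HoxD-Evx2 anchors the log2 difference between Ring1BGWT and Ring1B-/- had a Spearman rho of 0.517 with fragment length, 0.608 with the mean frequency in Ring1B_WT and -0.067 with GC content. Over the 111 flank fragments the values were 0.375, 0.398 and -0.15. These too are descriptions across fragments, which share partners and libraries.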

How the data were processed

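The 5C libraries were sequenced on an Ion Torrent instrument. Each library has 1 deposited matrix of signal values. For these the authors used a Galaxy pipeline for 5C reads, with an aligner not given in the sources used here, and scaled the read number of every contact to 1000 reads of its run. The build is mm9. Frequencies are therefore shares of a run, and a higher share for some pairs lowers that of others. Total reads (216419 to 1708047 in the libraries reported) were read from the step between values.

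Groups came from the labels. Means over pairs at least 10 kb apart, zeros included, were compared on the log2(value + 0.02) scale with limma 3.58.1 (R 4.3.3), two-sided. The spread was estimated over 14 libraries, those of Ring1BGWT, Ring1B-/-, Ring1BG53, Ring1B_WT, OS25_UD, OS25_D3 (differentiated with retinoic acid) and EED-/-. Benjamini-Hochberg adjustment covered 81 region contrasts together, and was made within each comparison for anchors, 20-kb bin pairs and fragment pairs with a mean above 0.02. The labels do not say that libraries of a group came from separate cultures, so p-values measure the spread between these libraries, which may be technical. No library was a copy of another.

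The members, regions and gene lists were chosen with earlier results of these data known. Named are the fragments of Evx2, the Hoxd genes, Lnp and Mtx2 and, where under 3 features passed the threshold, up to 10 features with the largest rise and the 5 largest falls among those whose groups did not overlap; Hoxd13-Hoxd1, Hoxd9-Hoxd13 and mHoxD_13 were added after their values had been seen. Distances and sequences came from pysam 0.24.0, pandas 2.3.3 and numpy 2.4.6 in Python 3.11.15, and plots from matplotlib 3.10.9, and the fit was tested on simulated data. Alternatives covered scaling, pseudocount, minimum distance, averaging, filters, bin size, the highest pairs and each library.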

Additional observations from a re-analysis of the deposited data

How the results depend on the processing

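The log2 difference in HoxD-Evx2 frequency between Ring1BGWT and Ring1B-/- kept its direction under 19 alternatives, at 0.56 to 1.21 with limma adjusted p of 0.00195 to 0.315, and passed the threshold under 2 of them: with the Evx2 fragment counted inside (1.02, chosen after seeing the data) and without Ring1B-/- replicate 3. Leaving out each library gave 0.79 to 1.21. The lowest value came without the highest 1% of pairs, which removes 26 of the 95. The enrichment ran from 0.91 to 1.58 and passed under 4 of 19, as a mean of log2 values (1.21), with only the compared groups in the fit (1.23), with the Evx2 fragment inside (1.30) and without Ring1B-/- replicate 3 (0.96 to 1.58 over the libraries left out). Of 27 region values, 3 passed as means of log2 values, 4 with only the compared groups, 2 with the spread as a function of the mean, 5 with the Evx2 fragment inside, and 0 to 12 when each library was left out, 12 without Ring1B-/- replicate 3.

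Scaling each library to its flank pairs, whose mean was lower in Ring1BGWT by a log2 difference of -0.17, raised the number of anchors called from 1 to 4, namely mHoxD_13, Evx2 and Hoxd13 higher and mHoxD_142 lower, and moved the median of all anchors from -0.09 to 0.05. Scaling to all pairs at least 10 kb apart moved it to -0.23. Over all partners, no anchor was called as a mean of log2 values or with a pseudocount of 0.1 (0 each), and 0 to 10 were called when each library was left out, 10 without Ring1B-/- replicate 3 (8 higher). Bin pairs called were 0 with bins of 12 or 40 kb, with only the compared groups, under both scalings and without each library in turn. Without a filter on low values 21 fragment pairs were called (7 higher, 14 lower). Pairs with both Ring1BGWT libraries above all Ring1B-/- libraries numbered 357 to 904 when a library was left out (904 without Ring1BGWT replicate 1 and 714 without Ring1BGWT replicate 2), and 33 to 54 inside HoxD-Evx2, where 15 of 69 remained without the highest 1% of pairs. With reads thinned to the shallowest library the counts were 271 and 29. The Ring1BG53 frequency was 1.21 from 20 kb and 0.569 without the highest 1% of pairs.

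Directions turned for these differences: HoxD-Evx2 to the 3′ flank (-0.38 as a mean of log2 values, -0.10 without the highest pairs, -0.08 scaled to pairs at least 10 kb apart, -0.17 to 0.32 with libraries left out), the Hoxd3 anchor mHoxD_82 (-0.30 and -0.14), within Evx2-Hoxd9 (from 0.86 to -0.02 without the highest pairs), and, scaled to flank pairs, between the flanks (0.12), within the 5′ flank (0.11) and inside the flanks at 60 to 80 kb (0.08) and 80 to 110 kb (0.12). With libraries left out these last 4 ran from -0.10 to 0.06, -0.13 to 0.04, -0.31 to 0.18 and -0.19 to 0.12. The cause of these changes was not tested.

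No paired analysis was possible because the titles of the Ring1BGWT libraries and of one Ring1B-/- library carry no replicate numbers that pair libraries across these groups. A count test on recovered reads was not run. Depth limits single pairs most: the shallowest library resolves no frequency under 0.0139 at 3 reads.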
